A study of Mus musculus with 69 samples.

Results

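The 10 genes described here are Dazl, Ddx4, Mael, Stk31, Sycp1, Sycp3, Hormad1, Tex101, Slc25a31 and Taf7l, all germline genes that are known as targets of silencing by promoter DNA methylation in somatic tissues. They were chosen by symbol, as listed members of that class. All 10 have a row among the 16263 genes of the mRNA-seq count table, and all 10 were among the 14061 genes with enough reads to be tested. DNA methylation itself was not measured in the data analysed here.

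The samples came from J1 mouse embryonic stem cells (ESCs) of the 129S4/SvJae background and from 2 H3.3K27R lines made from them, #18 (Mut18) and #43 (Mut43). In both mutant lines the lysine at residue 27 of the histone variant H3.3 was replaced by arginine through CRISPR editing of both genes that encode H3.3, H3f3a and H3f3b, so that this residue can be neither acetylated nor methylated. WT, Mut18 and Mut43 each had 2 mRNA-seq libraries and 2 ATAC-seq libraries, the latter a map of open chromatin made with the transposase Tn5. Each mutant line is a single clone, and the edit and clonal history cannot be told apart. Whether the clones share steps of the editing is not given in the sources used here. Agreement between them thus does not separate the edit from a shared history. All cells were kept on feeder fibroblasts and passaged without feeders before collection. The mRNA-seq libraries held 14992756 to 15143998 counts each, and the replicates are biological replicates by the study's design, so the p-values below measure the spread between cultures of the same line.

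Germline genes of this class act in germ cell specification, in the piRNA pathway that silences transposons, in the pairing of meiotic chromosomes and in sperm. Many have CpG-rich promoters. In the early embryo such promoters are bound by the non-canonical Polycomb complex PRC1.6, whose subunits MGA and MAX recognise an E-box and whose subunits E2F6 and TFDP1 recognise an E2F motif, and DNMT3B methylates them as cells leave pluripotency.

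The letters of these motifs were looked for in the promoters, and 6 of them are shown here because their transcripts moved most between WT and mutant cells. Each line reads in the direction of transcription and ends at or just before the first exon of the transcript, on build GRCm38. The sequences are RefSeq's for that build, except for Dazl, where the window upstream of an inner GENCODE start site was read from the genome because the ATAC-seq peak lay there. The peak of Taf7l also lay at an inner start site, but the window there held neither motif, so the RefSeq one is shown. The windows shown were thus chosen in part by their motifs. Capitals mark the E-box CACGTG, which reads the same on both strands, and the E2F motif TCCCGC or its reverse complement GCGGGA. The first 3 genes had more transcript in the mutants (Hormad1, chr3:95559427-95559676, plus strand; Dazl, chr17:50292893-50293142, minus strand; Stk31, chr6:49395289-49395538, plus strand), and the last 3 had less (Sycp3, chr10:88459337-88459568, plus strand; Slc25a31, chr3:40708621-40708854, plus strand; Taf7l, chrX:134476491-134476740, minus strand).
Hormad1: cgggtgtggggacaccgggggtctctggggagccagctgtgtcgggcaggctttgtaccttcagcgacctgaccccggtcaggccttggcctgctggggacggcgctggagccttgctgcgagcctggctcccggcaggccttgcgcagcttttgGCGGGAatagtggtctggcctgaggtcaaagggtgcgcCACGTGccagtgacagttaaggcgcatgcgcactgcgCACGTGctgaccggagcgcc
Dazl: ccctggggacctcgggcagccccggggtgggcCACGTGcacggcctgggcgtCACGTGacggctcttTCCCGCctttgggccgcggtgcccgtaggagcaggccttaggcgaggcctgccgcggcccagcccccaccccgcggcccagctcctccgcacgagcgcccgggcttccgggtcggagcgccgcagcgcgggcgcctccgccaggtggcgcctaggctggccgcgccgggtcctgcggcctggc
Stk31: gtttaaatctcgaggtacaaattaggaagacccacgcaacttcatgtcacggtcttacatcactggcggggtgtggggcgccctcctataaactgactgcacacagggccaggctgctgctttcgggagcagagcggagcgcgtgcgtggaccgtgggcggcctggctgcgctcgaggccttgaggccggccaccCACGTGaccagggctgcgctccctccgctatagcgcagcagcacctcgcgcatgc
Sycp3: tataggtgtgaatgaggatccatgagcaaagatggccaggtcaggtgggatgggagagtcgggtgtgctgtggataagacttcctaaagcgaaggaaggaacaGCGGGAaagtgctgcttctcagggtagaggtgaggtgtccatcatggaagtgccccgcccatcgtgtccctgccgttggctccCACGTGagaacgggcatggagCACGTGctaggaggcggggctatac
Slc25a31: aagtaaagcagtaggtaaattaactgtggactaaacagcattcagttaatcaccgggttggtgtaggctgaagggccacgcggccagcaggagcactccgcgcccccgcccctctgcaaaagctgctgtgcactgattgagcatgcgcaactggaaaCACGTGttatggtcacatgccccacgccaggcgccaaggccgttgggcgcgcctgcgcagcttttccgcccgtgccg
Taf7l: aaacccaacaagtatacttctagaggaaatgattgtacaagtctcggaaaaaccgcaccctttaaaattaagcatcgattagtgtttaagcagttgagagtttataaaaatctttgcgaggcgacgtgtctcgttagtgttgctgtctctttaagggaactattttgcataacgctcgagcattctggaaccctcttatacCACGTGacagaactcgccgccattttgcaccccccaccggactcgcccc

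An E-box stood within 250 bp upstream of a RefSeq start site in 8 of the 10 genes, all but Dazl and Tex101. The inner Dazl window held 2 E-boxes, at -218 and -198 bp, and the inner Taf7l window held none. Over 32817 RefSeq promoter windows of the same length, 6.02% held an E-box. Hormad1 had E-boxes at -57 and -20 bp and Sycp3 at -64 and -43 bp, each pair lying close to the start site. The E2F motif stood in the RefSeq windows of Ddx4, Mael, Sycp3 and Hormad1, against 16.9% of all RefSeq windows. Both motifs together stood in 1.44% of all RefSeq windows. The inner Dazl window, which is not among those, held the E2F motif as well. The RefSeq windows of the 10 genes held 12 to 31 CpG dinucleotides, from Sycp3 to Ddx4, where the median window held 6. Both motifs contain a CpG, and the shares over all windows were not matched for CpG number. The motifs were thus present over genes that rose as well as genes that fell. A match describes letters in a window and was not measured as binding.

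ESC markers were high in all 6 mRNA-seq libraries, as the label of the cells states. In reads per kilobase of exon, scaled to a common depth (RPKM), Pou5f1 stood at 488 to 625, Sox2 at 195 to 239 and Nanog at 136 to 158. Of 8 ESC markers, 6 rose and 2 fell in the mutants (5 and 2 without WT replicate 1), where 24.2% of all tested genes rose and 25.6% fell at an edgeR adjusted p under 0.05. Their median log2 fold change was 0.21, and Zfp42 (0.72) and Pou5f1 (-0.27) moved most in each direction. All of 6 tested markers of 2-cell-like cells, a rare state of ESC cultures, fell, with a median log2 fold change of -2.5, as for Zscan4f (-2.80), whose reads may be shared with its near-identical copies. Summed normalized counts of these markers were 1656 and 1747 for WT and 224.3 to 305.3 in the mutants. Of 7 tested feeder fibroblast markers 6 fell, and their sum was 4134 for WT replicate 1, 2882 for WT replicate 2 and 1929 to 2544 in the mutants. Without WT replicate 1, 4 fell. Col3a1 had 863 counts in WT replicate 1 and 262 for WT replicate 2, so WT replicate 1 stood apart, and results that depend on this library are given without it. Lum, another fibroblast marker, was at 0 counts in 3 of the 6 libraries. The part of either cell type in the results below was not tested, and in bulk samples fewer cells of a type and less RNA per cell cannot be told apart.

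All 10 germline genes had reads in every library, so none of them was without transcript in these cells. Compared per length in WT, Ddx4 was the highest at 10.5 ± 0.608 RPKM (SD, n = 2), followed by Sycp3 (7.53), Mael (6.47), Hormad1 (5.13), Sycp1 (3.94), Stk31 (1.84), Dazl (1.6), Taf7l (1.46), Slc25a31 (1.21) and Tex101 (0.644). The median over 13937 tested genes with a known length was 6.29 RPKM. Ddx4 and Sycp3 were thus above the middle of the expressed genes, at percentiles 61.4 and 54, and Tex101 at percentile 14.2 was the lowest. The place of Sycp3 is uncertain, since 660 bp of its 1264 bp of exon are shared with the gene Chpt1 on the opposite strand. Mael, at percentile 50.6, lay near the middle, with its WT libraries on either side of the median (6.73 and 6.2 RPKM). Between neighbours in this order, the WT libraries of Stk31 and Dazl, of Dazl and Taf7l and of Taf7l and Slc25a31 overlapped, so these were not ordered beyond their spread. In the 4 mutant libraries the order changed at the top, where Hormad1 reached 9.90 ± 1.00 RPKM (SD, n = 4) and overlapped Ddx4 at 8.83 ± 0.428. Tex101 (0.825), Slc25a31 (0.765) and Taf7l (0.721) came last in the mutants and overlapped each other.

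In the comparison of both clones with WT, 3 of the 10 genes rose, 4 fell and 3 did not pass the test at an adjusted p under 0.05. Hormad1, Dazl and Stk31 rose, and Taf7l, Slc25a31, Sycp3 and Ddx4 fell. Over all tested genes, 24.2% rose and 25.6% fell by the same rule, so that changes of this kind were common in these lines. With a change of over 2-fold required as well, 0 of the 10 rose (3.26% of tested genes) and Taf7l alone fell (5.82% of tested genes). The fall of Taf7l was under 2-fold without WT replicate 1 (log2 -0.78), Mut18 replicate 1 (-0.96) or Mut43 replicate 2 (-0.98). It stayed over 2-fold without any 1 of the other libraries. The same 3 genes were higher in every mutant library than in either WT library, against 29.4% of tested genes, and the same 4 were lower in every mutant library, against 30.4%. The median log2 fold change of the 10 was -0.02, beside -0.0049 over all tested genes, while the median size of their change without regard to sign was 0.57, beside 0.23. Between Mut18 and Mut43, where none of the 10 was called, these sizes were 0.2 and 0.08. The background was not matched for expression level, so a larger size is not shown to be particular to these genes. The summed normalized counts of the 10 genes were 1412 and 1352 for WT, 1319 and 1439 for Mut18 and 1481 and 1518 for Mut43. The sums of WT and Mut18 overlapped, and both sums of Mut43 were higher than those of WT and Mut18. Called genes of the class moved in both directions.

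**Figure D1:**
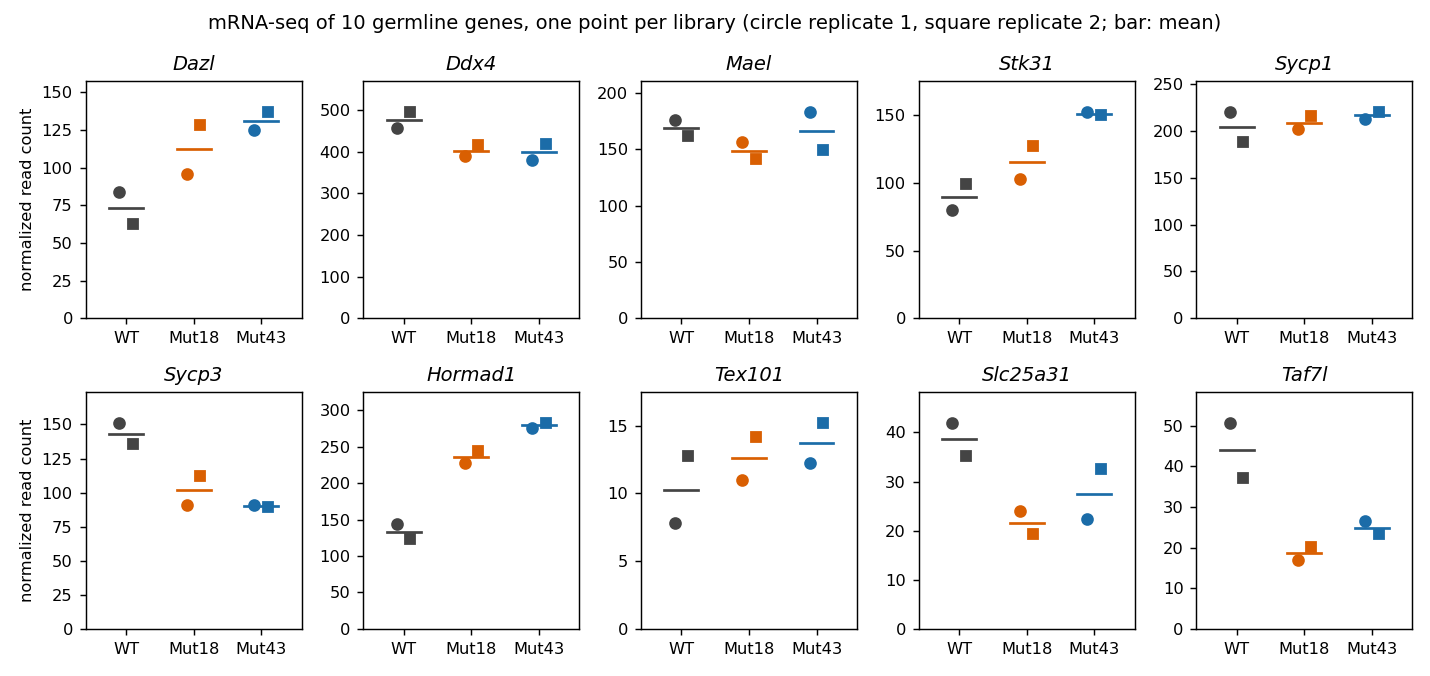
Normalized mRNA-seq read count (y axis, linear from 0, own scale per gene) of the 10 germline genes in WT, Mut18 and Mut43 ESCs. Each point is 1 library (circle for replicate 1, square for replicate 2) and bars are means of 2 libraries. Hormad1, Dazl and Stk31 lie higher in every mutant library than in WT, Taf7l, Slc25a31, Sycp3 and Ddx4 lie lower, and Mael, Sycp1 and Tex101 overlap.

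Among the genes of germ cell RNA regulation, Dazl rose most. Dazl (chr17:50279395-50293636, minus strand) encodes an RNA-binding protein that germ cells need for translation of their transcripts. Its normalized counts, which are counts scaled to a common library size, were 83.97 and 62.73 for WT, 96.12 and 128.5 for Mut18, and 125.2 and 137 for Mut43. All 4 mutant libraries were above both WT libraries, with Mut18 replicate 1 nearest to WT. The fold was 1.65 (log2 0.72 ± 0.15 SE, 95% interval 0.41 to 1.04, edgeR adjusted p = 0.000266).

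Stk31 (chr6:49395604-49469501, plus strand), a testis kinase with a Tudor domain, rose as well. It had 80.06 and 98.99 normalized counts for WT, 103.1 and 127.4 for Mut18 and 152.6 and 150.2 for Mut43. The groups did not overlap, and both Mut43 libraries were above both Mut18 libraries. The mean of the clones was 1.48-fold that of WT (log2 0.56 ± 0.13 SE, 95% interval 0.29 to 0.83, edgeR adjusted p = 0.000935).

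Ddx4 (chr13:112598333-112652475, minus strand), the Vasa RNA helicase of the germ granule, had the highest counts of the 10. Normalized counts were 456.9 and 495.9 for WT, 389.5 and 416.7 for Mut18, and 379.6 and 418.1 for Mut43. Every mutant library was lower than both WT libraries, but the change was small. It amounted to 0.842 of the WT level (log2 -0.25 ± 0.074 SE, 95% interval -0.40 to -0.10, edgeR adjusted p = 0.00655). The call was lost without WT replicate 2 (adjusted p = 0.106) and with DESeq2 (adjusted p = 0.0766), within a range of 0.00491 to 0.106 over 12 alternatives.

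Mael (chr1:166201201-166238747, minus strand), which encodes the piRNA pathway protein maelstrom, did not pass the test. It had 175.7 and 161.7 normalized counts for WT, 156.2 and 141.6 for Mut18 and 183.2 and 149.2 for Mut43. WT and mutant libraries overlapped (log2 -0.10, 95% interval -0.32 to 0.12, edgeR adjusted p = 0.451), which leaves room for a fall of up to 0.32 on the log2 scale.

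Of the 3 genes of the meiotic chromosome axis and synaptonemal complex, 1 rose, 1 fell and 1 did not pass the test. Shares over all tested genes were 24.2% for a rise and 25.6% for a fall. Hormad1 (chr3:95559677-95587671, plus strand) encodes a HORMA-domain protein of unpaired chromosome axes and showed the change with the lowest adjusted p of the 10. Its normalized counts were 143.5 and 123.5 for WT, 228.3 and 243.8 for Mut18 and 275.8 and 283.1 for Mut43. The lowest mutant library was far above the higher WT library. The fold was 1.92 (log2 0.94 ± 0.097 SE, 95% interval 0.74 to 1.14, edgeR adjusted p = 7.47e-09), and the call held in all 12 alternatives, with adjusted p from 4.42e-09 to 4.54e-06.

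Sycp3 (chr10:88459569-88473236, plus strand), a lateral element protein of the synaptonemal complex, moved the other way. Normalized counts were 151.3 and 135.3 for WT, 91.11 and 112.3 for Mut18 and 90.57 and 89.3 for Mut43. All mutant libraries were below WT, and Mut18 replicate 2 stood above the other mutant libraries. The level in the mutants was 0.668 of that in WT (log2 -0.58 ± 0.12 SE, 95% interval -0.84 to -0.33, edgeR adjusted p = 0.000321). Exons of Sycp3 and of Chpt1, a gene of phospholipid synthesis on the opposite strand, share 660 bp, and whether reads were counted by strand is not given in the sources used here. Chpt1 had 188.4 and 110.8 normalized counts in WT and 100.5 to 137.4 in the mutants (log2 -0.36, edgeR adjusted p = 0.0569), so the reads of both genes cannot be told apart there.

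Sycp1 (chr3:102818499-102936100, minus strand), which encodes the transverse filament of the same complex, had 219.7 and 188.2 normalized counts for WT, 202.3 and 215.4 for Mut18 and 212.7 and 220.2 for Mut43. The groups overlapped (log2 0.06, 95% interval -0.13 to 0.25, edgeR adjusted p = 0.615). The interval was narrow, so that a change of more than 0.25 on the log2 scale in the mean of the clones lies outside it.

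Of the 3 genes of later male germ cells, 2 fell, where 25.6% of all tested genes fell. Taf7l (chrX:134460118-134476490, minus strand), a testis paralogue of the general transcription factor subunit TAF7, had 50.77 and 37.24 normalized counts for WT, 17.02 and 20.23 for Mut18 and 26.46 and 23.34 for Mut43. Every mutant library was well below WT, and Mut18 was the lower of the clones. The level was 0.491 of that in WT (log2 -1.03 ± 0.23 SE, 95% interval -1.51 to -0.55, edgeR adjusted p = 0.000649). Over 12 alternatives the log2 fold change ran from -1.23 to -0.78, the latter without WT replicate 1. The 508 tested genes of chromosome X had a median log2 fold change of -0.15.

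Slc25a31 (chr3:40708855-40726096, plus strand), the ADP/ATP carrier of sperm and meiotic cells, had 41.98 and 35.28 normalized counts for WT, 24.03 and 19.22 for Mut18 and 22.39 and 32.47 for Mut43. The groups did not overlap, although Mut43 replicate 2 came close to WT replicate 2. The level was 0.632 of that in WT (log2 -0.66 ± 0.24 SE, 95% interval -1.15 to -0.17, edgeR adjusted p = 0.0225). At these low counts the call was fragile and was lost without WT replicate 1 (adjusted p = 0.181), without Mut18 replicate 2 (0.0944), without Mut43 replicate 1 (0.109) and with DESeq2 (0.211), which gave the highest adjusted p of the 12 alternatives, the lowest being 0.023.

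Tex101 (chr7:24668007-24676675, minus strand), a surface glycoprotein of germ cells, was near the lower limit of what these libraries resolve. It had 8 and 13 counts in WT, 11 and 14 for Mut18 and 12 and 15 for Mut43. The groups overlapped (log2 0.35, 95% interval -0.44 to 1.14, edgeR adjusted p = 0.467). The interval runs from a fall to more than a doubling, so no direction could be read at this depth.

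**Figure D2:**
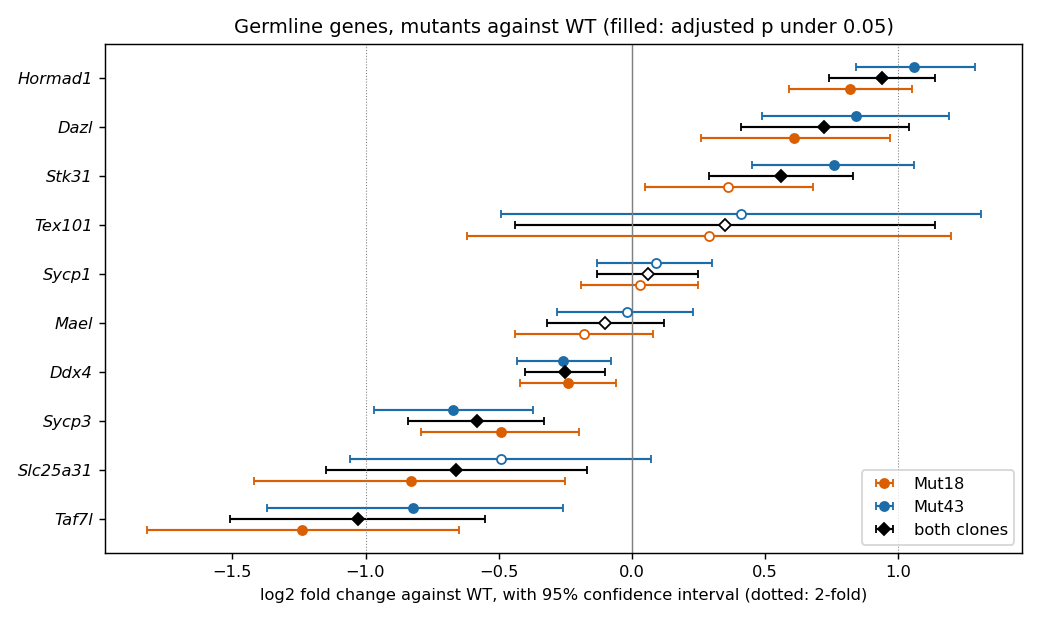
Log2 fold change against WT (x axis) of the 10 germline genes with its 95% confidence interval, for the mean of both clones (black), Mut18 (orange) and Mut43 (blue), from the edgeR fit. Filled symbols passed an adjusted p of 0.05 and dotted lines mark a 2-fold change. For the mean of both clones the values run from 0.94 for Hormad1 to -1.03 for Taf7l, and the intervals of both clones overlap for every gene.

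Each clone was then compared with WT on its own, against the same 2 WT libraries, so the comparisons are not independent of each other. In Mut18, 2 of the 10 genes rose (Hormad1 and Dazl) where 20.3% of tested genes rose, and 4 fell (Taf7l, Slc25a31, Sycp3 and Ddx4) where 21.0% fell. In Mut43, 3 rose (Hormad1, Dazl and Stk31), with 22.9% of tested genes, and 3 fell (Taf7l, Sycp3 and Ddx4), with 23.9%. Hormad1 was 1.77-fold higher in Mut18 and 2.09-fold higher in Mut43, the latter the single rise of over 2-fold among the 10. In Mut43, 3.49% of tested genes rose by over 2-fold. Dazl was 1.53-fold and 1.79-fold higher. Taf7l was at 0.425 of WT in Mut18 and at 0.567 for Mut43. Stk31 in Mut18 had a log2 fold change of 0.36 that missed the threshold (edgeR adjusted p = 0.0598), and Slc25a31 in Mut43 had one of -0.49 that missed it as well (adjusted p = 0.145).

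Clone by clone, several calls hung on 1 library. In Mut18, Dazl did not pass without WT replicate 2 (edgeR adjusted p = 0.0946) or Mut18 replicate 2 (0.163), and ranged from 0.00161 to 0.163 over 11 alternatives. Sycp3 in Mut18 did not pass without WT replicate 1 (0.0624) or Mut18 replicate 1 (0.13, the highest of a range from 0.00753). Ddx4 in Mut18 did not pass without WT replicate 2 (0.176), Mut18 replicate 1 (0.199) or Mut18 replicate 2 (0.0541), and in Mut43 without WT replicate 2 (0.131) or Mut43 replicate 1 (0.189). Slc25a31 in Mut18 did not pass without WT replicate 1 (0.13) or either Mut18 replicate (0.066 and 0.181). Taf7l in Mut43 did not pass without WT replicate 1 (0.176), Mut43 replicate 1 (0.0695) or Mut43 replicate 2 (0.134). Stk31 in Mut18 passed without WT replicate 2 (0.0293) or Mut18 replicate 1 (0.0381). Hormad1 in both clones, Taf7l in Mut18, and Dazl, Sycp3 and Stk31 in Mut43 passed without any 1 library.

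Tested directly, the clones did not differ in any of the 10 genes by the edgeR adjusted p. Of all tested genes, 0.263% were higher and 0.0640% lower in Mut18 than in Mut43. At an unadjusted p under 0.05, 2 of the 10 and 1198 of all tested genes differed. DESeq2 gave an adjusted p for Ddx4 alone, which it did not call, and none for the other 9 genes. The 2 were Stk31, with a log2 difference between Mut18 and Mut43 of -0.39 (95% interval -0.69 to -0.10, adjusted p = 0.376), and Hormad1, with -0.24 (95% interval -0.45 to -0.04, adjusted p = 0.456). For Ddx4 and Sycp1 the intervals were narrow, -0.17 to 0.20 and -0.27 to 0.17. For Taf7l (-1.07 to 0.23) and Slc25a31 (-0.97 to 0.29) the intervals were wide and included a clone difference at least as large as the change against WT.

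Open chromatin at the promoters was read from the peaks that the authors called in each ATAC-seq library. A gene was counted as having a promoter peak where a peak overlapped the 1000 bp on either side of an annotated start site. WT replicate 1 had such a peak at all 10 germline genes, WT replicate 2 at 9, Mut18 at 7 and 9, and Mut43 at 8 in both replicates. Of 16094 genes with a known position, 83.4% to 87.9% had one per library. Dazl, Mael, Stk31, Sycp1, Sycp3 and Taf7l had a peak in all 6 libraries, as did 80.7% of genes, and 0 of the 10 had none, as did 11.1%. The other 4 (Ddx4, Hormad1, Slc25a31 and Tex101) had a peak in some libraries, as did 8.18% of genes. A peak found in both replicates of WT but in no mutant replicate (0.739% of genes) occurred at 0 of the 10, and so did one found in all mutant replicates but not in WT (0.0808%). With 2 against 4 libraries the smallest exact one-sided p is 0.0667, so the peaks are described without a test. Peak numbers differed as well, since the lists held 78536 peaks in WT replicate 1 and 63588 to 69811 in the other 5.

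**Figure D3:**
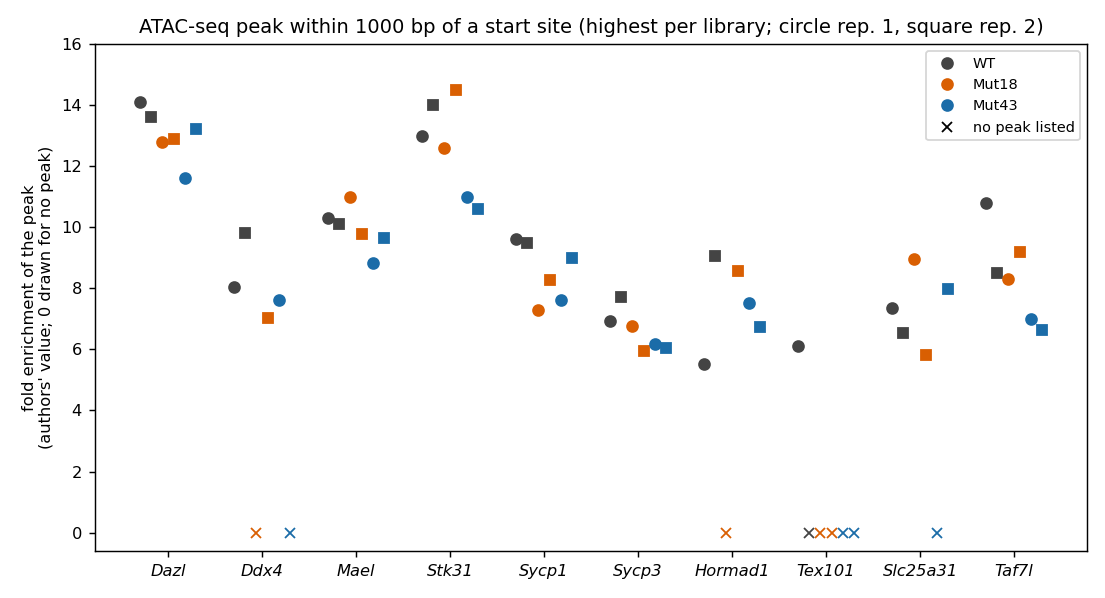
Fold enrichment over background of the highest ATAC-seq peak (y axis, the authors' value) within 1000 bp of a start site of each germline gene, 1 point per library (circle for replicate 1, square for replicate 2; cross at 0 for no listed peak). In every library Dazl and Stk31 have the highest peaks, from 10.6 to 14.5, and Tex101 has a peak in WT replicate 1 only.

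In every library the highest promoter peaks of the 10 belonged to Dazl and Stk31, both among the genes that rose. For Dazl, fold enrichment over background as given by the authors was 14.1 and 13.6 for WT, 12.8 and 12.9 for Mut18 and 11.6 and 13.2 for Mut43. For Stk31 it was 13 and 14 for WT, 12.6 and 14.5 for Mut18 and 11 and 10.6 for Mut43. Neither promoter had a higher peak in every mutant library than in WT, and for Dazl every mutant value was lower than both WT values while the transcript was higher. The Dazl peak (chr17:50292655-50293179 in WT replicate 1) did not lie at the RefSeq start at position 50293620 but at the inner start at 50292892, with summits 48 to 113 bp downstream of that start, in an intron or the 5′ untranslated region. The Stk31 peak (chr6:49395348-49395835 in WT replicate 1) had its summits at -96 to -54 bp from the start at 49395604.

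Hormad1, the gene with the clearest rise, had a weaker peak that was listed in 5 of 6 libraries. Its fold enrichment was 5.51 and 9.07 for WT, 8.57 for Mut18 replicate 2 and 7.52 and 6.74 for Mut43, and in Mut18 replicate 1 the nearest peak was 28895 bp from the start. The summits lay at -89 to -39 bp, in the stretch printed above, and the peak covered the E-box at -57 bp in all 5 libraries and the one at -20 bp in 4. The Hormad1 transcript was raised in Mut18 and in Mut43. The mRNA-seq and ATAC-seq libraries are separate samples, so replicate numbers do not join them.

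Peaks of the genes that fell showed no common pattern. Taf7l had 10.8 and 8.51 for WT, 8.3 and 9.18 for Mut18 and 7.01 and 6.65 for Mut43, so WT and Mut18 overlapped while both Mut43 values were lower. As for Dazl, its peak lay at an inner start site at position 134474993, with summits at -159 to -116 bp, and not at the RefSeq start at 134476490, whose E-box was under no peak in any library. Sycp3 had 6.94 and 7.71 for WT and 5.95 to 6.78 in the mutants, and a further peak in its first intron in all 6 libraries. The mutant values of Sycp3 were all below WT. Its E-boxes at -64 and -43 bp lay under a peak in 5 and 6 libraries.

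Peak heights are the fold enrichments of each library and were not rescaled between libraries here. Among the 12986 genes with a promoter peak in all 6 libraries, every mutant value was below WT at 4.09%, and above WT at 17.8%. Of the 6 germline genes with such peaks, 3 (Dazl, Sycp1 and Sycp3) were below and 0 above, a comparison made after their values had been seen.

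Ddx4 had a peak of 8.03 and 9.81 for WT, of 7.04 for Mut18 replicate 2 and of 7.62 for Mut43 replicate 1, and none in the other mutant libraries, where the nearest peaks were 8000 and 8009 bp away. Both mutant values were below WT. Slc25a31 had 7.34 and 6.55 for WT, 8.96 and 5.81 for Mut18 and 7.99 for Mut43 replicate 2, with no peak in Mut43 replicate 1. Each clone thus had a peak at both promoters in at least 1 library. The E-box of Ddx4 lay under a peak in 4 libraries and that of Slc25a31 in 5.

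Among the genes whose transcripts did not pass the test, Mael had a peak of 8.84 to 11 in all 6 libraries, with WT (10.3 and 10.1) inside the range of the mutants. Sycp1 had 9.6 and 9.47 for WT and 7.3 to 8.98 in the mutants, all lower. Its summits lay 323 to 530 bp downstream of the start, in coding exon or intron, so that its promoter E-box at -94 bp was under no peak. Tex101 had a single peak of 6.11, in WT replicate 1, the library with the most peaks. When the same number of peaks (63588, the highest by -log10 q) was taken from every library, 1 of the 10 genes was left with no peak in any.

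**Figure D4:**
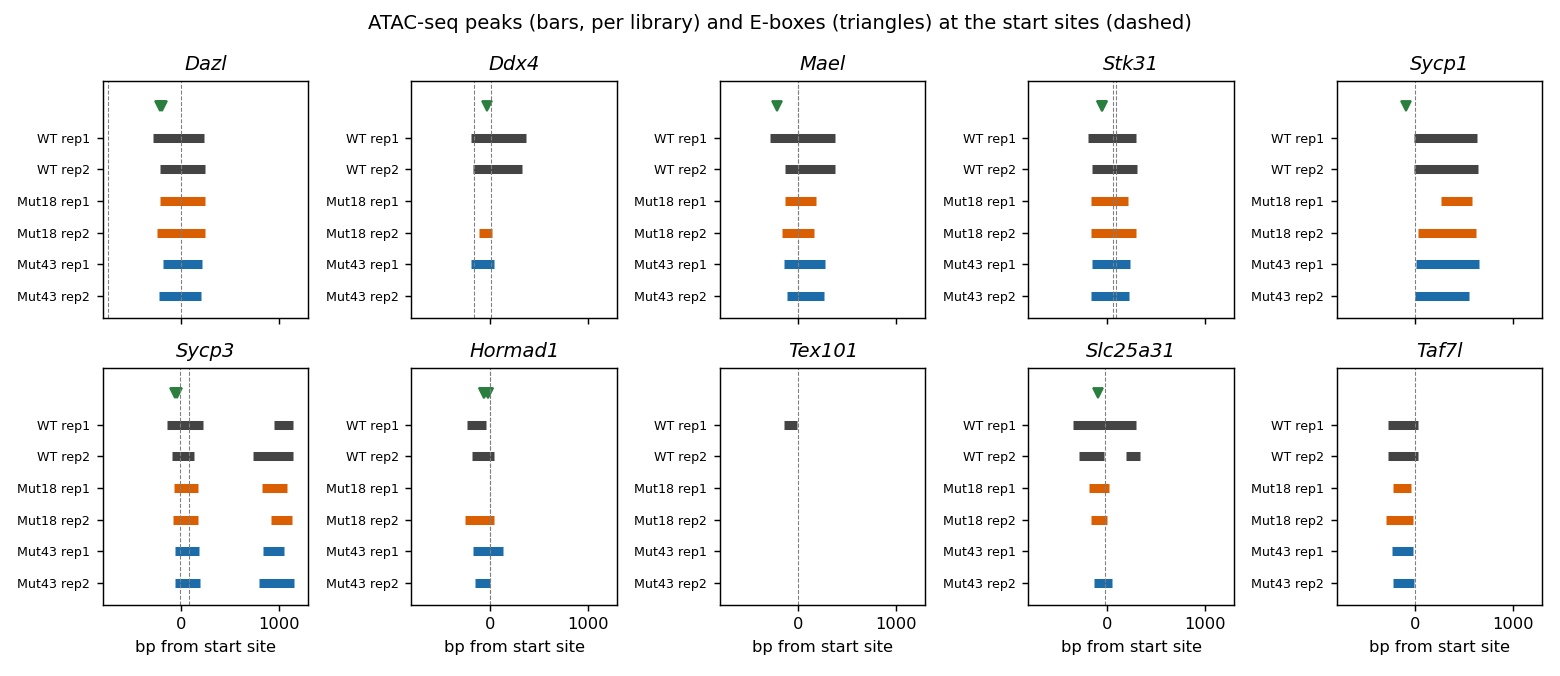
ATAC-seq peaks (bars, 1 row per library) around the start sites of the 10 germline genes, with distance from the start site in bp along the direction of transcription (x axis), annotated start sites (dashed) and E-boxes (triangles). Peaks sit at the start in most genes and downstream of it in Sycp1, and Sycp3 has a further peak in its first intron.

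Other genes with the same roles were taken as lists from textbook knowledge, with earlier results of these data known. The lists held 18 piRNA and nuage, 23 meiotic chromosome, 18 testis and sperm and 13 early germ cell genes. Of these, 17, 21, 11 and 12 had a row in the count table. Genes with few or no reads were not tested, so the counts below describe the expressed part of each list. The filter could pass a gene for its mutant reads alone, so genes below it in WT were tested only where higher in the mutants. Of 15 tested piRNA and nuage genes, 9 rose and 3 fell (median log2 fold change 0.47), where 24.2% of all tested genes rose and 25.6% fell. Fkbp6 (1.92), a co-chaperone of piRNA loading, Gpat2 (1.61), Tex19.1 (1.59), Piwil1 (1.08) and Piwil2 (0.90), the latter a pair of Argonaute proteins, rose most in log2 fold change. Piwil1 had 6 and 10 counts in WT and 12 to 26 in the mutants, so it was tested through its mutant reads. Tdrd1, a Tudor scaffold of the germ granule, fell by 1.18 on the log2 scale, from 148.4 and 150 normalized counts in WT to between 58.86 and 77.88 in the mutants. Without WT replicate 1, 7 rose and 2 fell.

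Of 17 tested meiotic chromosome genes, 10 rose and 1 fell (median log2 fold change 0.42), beside 24.2% and 25.6% of all tested genes. Without WT replicate 1, 8 rose and 2 fell, beside 2793 and 2871 of 14320 tested genes. Hormad2, the paralogue of Hormad1, had 23.43 and 20.58 normalized counts in WT and 116 to 121.2 in the mutants (log2 2.42, edgeR adjusted p = 2.15e-11). Stra8, which germ cells need to enter meiosis, had 8.787 and 18.62 for WT and 55.63 to 92.34 in the mutants (log2 2.40, adjusted p = 8.12e-09). Both values were above that of Hormad1 (0.94). Meiob (1.29), Smc1b (0.97), Tex11 (0.75) and Rec8 (0.58), which act in recombination and in meiotic cohesion, followed. Meiob had low counts that overlapped, at 2.929 and 8.821 normalized counts in WT and 6.089 to 19.34 in the mutants (edgeR adjusted p = 0.0341). Its WT counts of 3 and 9 were below the filter's minimum of 10, so it was tested through its mutant reads. Hormad2 and Tex19.1 lie on chromosome 11, whose 1182 tested genes had a median log2 fold change of 0.39. It was 0.38 in Mut18 and 0.38 in Mut43, and the part of that shift in the change of both genes was not tested.

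Of 9 tested testis and sperm genes 4 rose and 1 fell (median log2 fold change 0.25), with and without WT replicate 1, beside 24.2% and 25.6% of all tested genes. The list held 18 genes, of which 11 had a row in the count table. Ldhc, the lactate dehydrogenase of sperm, had 4.882 and 5.881 normalized counts in WT and 21.31 to 38.05 in the mutants (log2 2.41, edgeR adjusted p = 4.61e-06). Its WT counts of 5 and 6 were below the filter's minimum of 10, so it too was tested through its mutant reads. Tuba3a (1.73), Tex14 (1.53, on chromosome 11) and Rpl10l (0.25) rose, and D1Pas1, a helicase gene, fell by 0.70 on the log2 scale. Of 11 tested early germ cell genes 6 rose and 2 fell (median log2 fold change 0.47), beside the same background and again with and without that library. Dppa3 had 253.9 and 231.3 normalized counts in WT and 812.2 to 934.2 in the mutants (log2 1.85, edgeR adjusted p = 2.43e-16). The germ cell specification factors Prdm14 (1.29) and Prdm1 (1.09), Kit (0.67) and Tfap2c (0.48) rose, and Lin28a fell by 0.27 on the log2 scale.

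**Figure D5:**
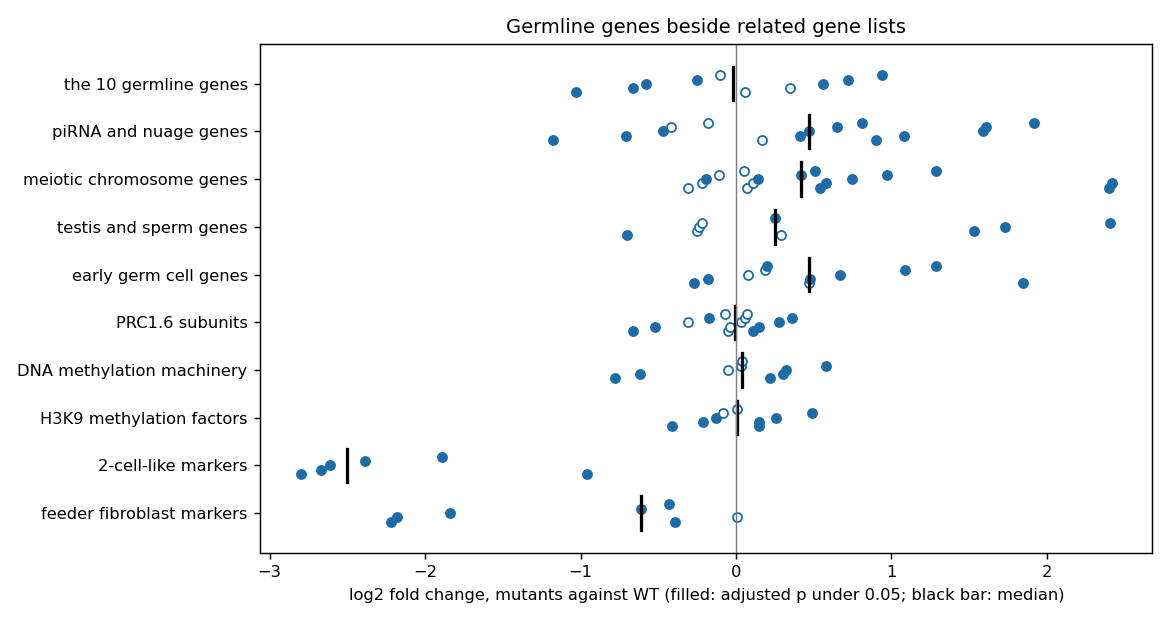
Log2 fold change of the mean of both H3.3K27R clones against WT (x axis) for the tested genes of 10 lists (rows), 1 point per gene, filled where the edgeR adjusted p was under 0.05. Black bars are medians, at -0.02 for the 10 germline genes, 0.47 for piRNA and nuage genes, 0.42 for meiotic chromosome genes and -2.5 for 2-cell-like markers.

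Transcripts of the machinery that acts on such promoters were examined last. Of 14 tested PRC1.6 subunits 4 rose and 3 fell (median log2 fold change -0.01), and 3 and 4 without WT replicate 1. Over all tested genes 24.2% rose and 25.6% fell, so these counts were near the background. Of its DNA-binding subunits, Mga and Tfdp1 rose, E2f6 fell and Max did not pass the test. Mga had 4858 and 4404 normalized counts in WT and 5144 to 5981 in the mutants (log2 0.28, edgeR adjusted p = 1.31e-05), while E2f6 had 494 and 496.9 for WT and 337.9 to 359.4 in the mutants (log2 -0.52, adjusted p = 9.17e-07). Tfdp1 (0.11, adjusted p = 0.0181), L3mbtl2 (0.36) and Rybp (0.15) rose, and Yaf2 (-0.66) and Hdac2 (-0.17) fell, in log2 fold change. Max, the partner of Mga, had a log2 fold change of 0.06 (adjusted p = 0.285). Pcgf6, the subunit that defines the complex, had a log2 fold change of 0.03 that did not pass the test (adjusted p = 0.632).

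Of 9 tested genes that write, maintain or remove DNA methylation 4 rose and 2 fell (median log2 fold change 0.04), with and without WT replicate 1, beside 24.2% and 25.6% of all tested genes. Dnmt3b, the de novo methyltransferase, had 9050 and 9278 counts in WT, 5262 and 5271 for Mut18 and 5062 and 5087 for Mut43. The mutant level was 0.583 of that in WT (log2 -0.78 ± 0.035 SE, edgeR adjusted p = 1.02e-15). Among the enzymes that oxidise methylated cytosine, Tet3 fell by 0.62 on the log2 scale while Tet2 (0.58) and Tet1 (0.30) rose. The cofactor Dnmt3l (0.32) and Uhrf1 (0.22), which recruits the maintenance enzyme, rose, and Dnmt1 (0.03, adjusted p = 0.535) and Dnmt3a (-0.05, adjusted p = 0.302) did not pass the test. Of 9 tested H3K9 methylation factors 4 rose and 3 fell (median 0.01), beside the same background, and 2 and 2 without WT replicate 1. In log2 fold change these were led by Cbx1 (0.49, on chromosome 11), Suv39h1 (-0.41), Atf7ip (0.26), Cbx5 (-0.21), Trim28 (0.15) and Ehmt2 (0.15).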

How the data were processed

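WT, Mut18 and Mut43 ESCs were compared by mRNA-seq and ATAC-seq, with 2 libraries per line and assay. Samples were grouped by their titles, and ChIP-seq samples were not analysed here. Libraries were sequenced as paired ends, and reads were mapped to a reference that held both mouse (mm10) and Drosophila (dm6) sequences. The submitters' processing notes name Bowtie2 2.3.4.2, SAMtools, STAR, DESeq2, deepTools 3.3.0 and MACS2 without a role. The counting program, gene annotation and strand setting are not given in the sources used here.

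The authors deposited whole-number counts per gene without normalization, and 2 symbols turned into dates by a spreadsheet were duplicated and kept apart. For ATAC-seq the authors deposited peaks called per library, each with a fold enrichment, a −log10 p-value and a −log10 q-value. These lists carry no read numbers, so ATAC-seq depth is unknown. Only peaks on chromosomes 1 to 19, X and Y were used.

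Differential tests used edgeR 4.0.16 under R 4.3.3 (filterByExpr at a minimum count of 10, TMM factors, glmQLFit and glmQLFTest with line as a factor of 3 levels, Benjamini-Hochberg adjustment over 14061 genes). Rates per length (RPKM) were computed from these counts, and not by the authors, with exon lengths from GENCODE vM21, which placed 16094 of 16263 symbols. Peaks, promoters and motifs were handled in Python 3.11.15, with RefSeq promoter windows of GRCm38.p6 for all 10 genes. The fit was tested on simulated data. Alternatives were DESeq2 1.42.0, other size factors, no filter, a 2-level design, a replicate block, scaling without chromosomes 11 and X, a 2-fold threshold, each library left out, and other windows and thresholds for peaks.

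The 10 genes and the lists were chosen with earlier results of these data known. From each list the text names up to 6 called genes with the largest log2 fold change, and Dnmt1, Dnmt3a, Dnmt3b, Dnmt3l, Uhrf1, Tet1, Mga, E2f6, Pcgf6 and L3mbtl2 whatever their result. Chpt1 is named for its overlap with Sycp3 and Lum as a fibroblast marker.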

Additional observations from a re-analysis of the deposited data

Results flagged for a closer look

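Sycp3 was flagged in Mut18 replicate 2, which had 112.3 normalized counts, the highest of the 4 mutant libraries. The other 3 lay between 89.3 and 91.11, and the gap to the nearest of them was 0.921 of the range of the 4, above Dixon's 95% critical value for 4 samples. Chance flags about 1 in 20 groups of this kind, and 10 genes were looked at. The library was still below both WT libraries (135.3 and 151.3). No difference between the clones passed the adjusted test for any of the 10 genes.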

How the results depend on the processing

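Over the alternatives, 114 of 120 log2 fold changes of the 10 genes against WT in the mean of the clones kept their side of the threshold, and 6 lost their call. The corresponding numbers were 93 of 110 in Mut18 (14 lost, 3 gained), 103 of 110 in Mut43 (7 lost) and 101 of 101 between the clones, where DESeq2 gave no adjusted p for 9 of the genes. Called values changed sign in 0 cases. Values that were not called changed sign in 1 alternative in the mean of the clones (Sycp1), 3 in Mut18 (Sycp1 and Tex101), 3 in Mut43 (Mael and Sycp1) and 4 between the clones (Ddx4 and Tex101). With a 2-fold change required, the genes called higher went from 3 to 0 in the mean of the clones, from 2 to 0 in Mut18 and from 3 to 1 in Mut43. Those called lower went from 4 to 1, from 4 to 1 and from 3 to 0. By this rule 3.26% of all tested genes rose and 5.82% fell in the mean of the clones. The shares were 2.79% and 4.74% in Mut18 and 3.49% and 6.81% in Mut43. With DESeq2, the genes called lower went from 4 to 2 in the mean, from 4 to 1 in Mut18 and from 3 to 1 in Mut43, and those called higher in Mut18 from 2 to 1. The cause of the DESeq2 difference was not tested. With 1 library left out, 3 were called higher and 3 to 4 lower in the mean, 1 to 3 higher and 1 to 4 lower in Mut18, and 3 higher and 1 to 3 lower in Mut43. The number of the 10 with a peak in no library was 0, was 1 with an equal number of peaks, and ranged from 0 to 1 with 1 ATAC-seq library left out. It was 1 without WT replicate 1, where Tex101 lost its only peak.

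Over all tested genes, DESeq2 called 2405 higher and 2323 lower in the mean of the clones, against 3406 and 3597 in edgeR, 1891 and 1646 in Mut18, against 2849 and 2957, and 2216 and 2081 in Mut43, against 3218 and 3363. Between the clones edgeR called 37 higher and 9 lower, DESeq2 18 and 7, edgeR without a filter 19 and 5, the replicate block 32 and 6, and edgeR with 1 library left out 1 to 57 and 2 to 13. Over all tested genes no pairing by replicate number was seen, since deviations of same-numbered libraries from their line's mean had correlations of -0.014, 0.025 and -0.002. Such correlations cannot exclude a replicate effect on some genes. Lum, for one, had reads in replicate 1 but not in replicate 2 of each line. With the replicate block 3332 genes were higher and 3538 lower in the mean of the clones, and the number of the 10 called in each direction was 3 and 4, as without it. A library left out leaves 1 library in its line, which is then assumed to vary like the others. Low counts limit Tex101, Slc25a31 and Taf7l most, and 2 WT libraries limit every comparison with WT.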
